A study of Homo sapiens with 12 samples.

Results

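Oxidative phosphorylation is carried out by 5 protein complexes of the mitochondrial inner membrane, and the nuclear genes of their subunits were followed here, complex by complex, in 4 groups of human breast cancer cells. A subunit was taken by its gene symbol, that is NDUFA, NDUFB, NDUFC, NDUFS and NDUFV for complex I, SDHA to SDHD for complex II, UQCR for complex III, COX4 to COX8 for complex IV and ATP5 for complex V. Of the 97 probe sets (groups of array probes read as 1 value) whose only symbol matched, 8 for NDUFAF assembly factors, 2 for pseudogenes and 1 for the noncoding NDUFV1-DT were set aside. The remaining 86 probe sets stand for 79 protein-coding genes, among 19460 probe sets with a single symbol and 33297 in all. Complex I had 37 probe sets of 34 genes, complex II 5 of 3 genes, complex III 7 of 7 genes, complex IV 18 of 17 genes and complex V 19 of 18 genes. Genes with 2 probe sets numbered 7, and the 2 probe sets of NDUFB4 held identical values in every array and are 1 measurement, although both are included in the counts of probe sets.

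All cells were labelled MDA-MB-231 1833, a bone-seeking subline of a mesenchymal, receptor-negative breast cancer line, and RNA was read on Affymetrix Human Gene 1.0 ST arrays. The 1833 control group had 3 arrays, and the labels give no vector or selection for it. The 1833 shHMGA2 group (3 arrays) carried a lentiviral shRNA against HMGA2, a chromatin protein of embryonic and tumour cells, and was kept in puromycin. Vector and puromycin therefore cannot be told apart from the shRNA where this group is set against control. The arrays labelled 1833 expressing Tet1 and 1833 expressing HOXA9 (2 independent arrays each) came from cells with a tetracycline-inducible lentiviral construct for TET1, which oxidises methylated cytosine in DNA, or for HOXA9, a homeobox transcription factor. These inducible cells also carried the Tet-On 3G regulator, were selected with both puromycin and G418 and grew in a serum approved for tetracycline systems. Serum, selection and regulator therefore cannot be told apart from the construct where these groups are set against control. Their source names also read 1834 where the titles and cell line fields read 1833, and whether any line was a clone or a pool is not given in the labels. The replicates are labelled biological, with no statement of separate cultures, so p-values measure the spread between these arrays. Replicate 3 of both inducible groups was the mean of replicates 1 and 2 in all 33297 probe sets and was left out.

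Complex I (NADH dehydrogenase) and complex II (succinate dehydrogenase) pass electrons to ubiquinone, complex III passes them on to cytochrome c, complex IV (cytochrome c oxidase) passes them to oxygen, and complexes I, III and IV pump protons. Complex V, the ATP synthase, makes ATP as the protons flow back. The most hydrophobic core subunits of complexes I, III, IV and V are encoded by mitochondrial DNA and none was the only symbol of a probe set here, so the values below cover the nuclear part only. Many carcinoma lines, this one included, lean on glycolysis while keeping a working respiratory chain.

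The arrays fell into 2 sets. Medians of the deposited log2 values were 7.21 to 7.28 in the control and shHMGA2 arrays and 7.66 to 7.71 in the arrays labelled Tet1 and HOXA9, with lower quartiles of 5.75 to 5.76 and 6.22 to 6.25. Correlations over the probe sets with a single symbol were 0.98 to 0.998 and 0.994 to 0.998 within the sets and 0.934 to 0.96 between them. Every comparison of an inducible group with control is also one between these sets, which cannot be told apart from the groups, so each was also run after 1 quantile normalization over the 10 arrays and after setting all array medians equal. The line's markers VIM, CD44, CAV1 and MSN had control means of 12.74 to 12.92 and EGFR 11.76, while SPARC (6.04), ESR1 (6.05 and 5.87 on 2 probe sets), PGR (5.53) and CDH1 (5.66) lay under 6.261, a limit at the 30th percentile of the values, where a signal is not known to exceed background. Of the genes known to be low in this line, ERBB2 (8.92), EPCAM (8.25 and 7.7) and GATA3 (7.83) lay above it in control. The probe set shared by ELAC2 and HMGA2 read 9.48 to 9.65 in control and 8.47 to 9.02 in shHMGA2 arrays (limma, log2 difference -0.75, SE 0.12, adjusted p = 0.0032 over all probe sets). TET1 read 6.98 and 7.16 in the arrays labelled Tet1, 7.2 and 7.4 in those labelled HOXA9, 6.45 to 6.66 in control and 8.72 to 9.29 in shHMGA2 arrays. TET1 was thus higher in shHMGA2 arrays (log2 difference 2.41, SE 0.13, adjusted p = 7.7e-06), while the arrays labelled Tet1 did not exceed those labelled HOXA9. The labels do not say whether the construct holds the sequence that the TET1 probes read, and HOXA9 has no probe set of its own.

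In the shHMGA2 arrays, subunit genes were more often higher than lower. Of the 86 probe sets 26 were higher and 2 lower than control (limma, Benjamini-Hochberg adjusted p under 0.05 over 19460 probe sets, two-sided), that is 30.2% and 2.33%, where 13.4% of all probe sets tested were higher and 12.4% lower. The median log2 difference was 0.09 over the subunits and -0.03 over all probe sets tested, and 63 of the 86 differences were above 0. The changes were small: 2 rises and 1 fall reached 1.5-fold, against 2.84% and 1.99% of all probe sets. By complex, 15 rose and 1 fell of 37 in complex I, 2 rose of 5 in complex II, 2 rose of 7 in complex III, 1 rose and 1 fell of 18 in complex IV, and 6 rose of 19 in complex V. Across single arrays the subunits' median difference from the control mean was 0.08, 0.09 and 0.14 in shHMGA2 replicates 1, 2 and 3, while complex IV stayed at 0.01 to 0.05. Without control replicate 1 or without shHMGA2 replicate 3 the count of higher subunits was 16, against 11.5% and 10.6% of all probe sets in the same fits, and without control replicate 2 or 3 or shHMGA2 replicate 2 or 3 the count of lower ones was 1, against 11.0%, 9.51%, 9.98% and 8.65% of all probe sets. The same call was made under all 3 scalings for 20 higher and 2 lower subunits, with 11.0% and 12.3% of all probe sets. NDUFA9, NDUFS3, NDUFAB1, UQCRQ and both NDUFB4 probe sets were not among these. Quantile normalization alone gave 24 higher and 2 lower (12.7% and 14.1% of all probe sets) and equal array medians 20 and 4 (11.3% and 14.7%).

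**Figure D1:**
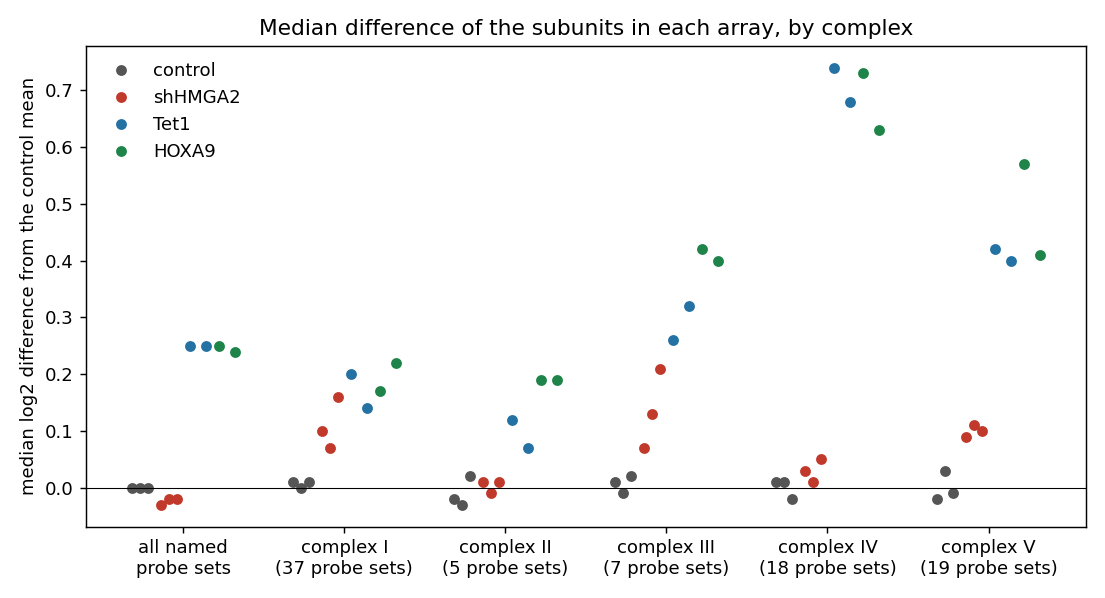
Median log2 difference from the control mean in each array (points, 10 arrays in 4 groups), over all probe sets with 1 symbol and over the subunits of each complex. In the shHMGA2 arrays complexes I, III and V lie above all named probe sets and complex IV stays near 0; in the arrays labelled Tet1 and HOXA9 complex IV is highest, at 0.63 to 0.74, where all named probe sets sit at 0.24 to 0.25.

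The largest rises lay in the ATP synthase and in the membrane arm of complex I. ATP5PO, the oligomycin sensitivity-conferring subunit of the stalk that holds the catalytic head of ATP synthase still, read 9.29, 9.46 and 9.42 in control and 10.13, 10.04 and 10.22 in shHMGA2 arrays. Every shHMGA2 array was above every control array, by a mean of 0.74 on the log2 scale (SE 0.07, 95% confidence interval 0.59 to 0.89, 1.67-fold, adjusted p = 1.5e-05). NDUFA1, a small membrane-arm subunit needed for complex I assembly, read 8.96, 9.01 and 9.05 in control and 9.44, 9.60 and 9.91 with the shRNA. Its groups did not overlap either, the highest value being shHMGA2 replicate 3 (log2 difference 0.65, SE 0.11, 0.41 to 0.88, adjusted p = 0.0011). ATP5MJ, a small membrane subunit of ATP synthase, stood at 9.02, 9.07 and 9.05 against 9.50, 9.58 and 9.81, a difference of 0.58 (SE 0.09, 0.39 to 0.78, adjusted p = 0.00061), again with no overlap. NDUFB9, an accessory subunit of the membrane arm, stood at 10.43, 10.53 and 10.28 against 10.85, 10.88 and 11.03, which is 0.50 higher (SE 0.08, 0.33 to 0.67, adjusted p = 0.00065).

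The promoters of ATP5PO, ATP5MJ and NDUFA1, the 3 largest rises, and of COX7B2, the largest fall, are shown because nuclear subunit genes share a few known regulators. The windows run from 250 bases before to 50 bases after the RefSeq gene start (GRCh38.p14): ATP5PO at chr21:33915755-33916054 on the minus strand, ATP5MJ at chr14:103921480-103921779 on the minus strand, NDUFA1 at chrX:119871582-119871881 on the plus strand, and COX7B2 at chr4:46909196-46909495 on the minus strand. Each is printed 5′ to 3′ on the strand of its gene, with matches to 3 motifs on either strand in capitals.
ATP5PO promoter: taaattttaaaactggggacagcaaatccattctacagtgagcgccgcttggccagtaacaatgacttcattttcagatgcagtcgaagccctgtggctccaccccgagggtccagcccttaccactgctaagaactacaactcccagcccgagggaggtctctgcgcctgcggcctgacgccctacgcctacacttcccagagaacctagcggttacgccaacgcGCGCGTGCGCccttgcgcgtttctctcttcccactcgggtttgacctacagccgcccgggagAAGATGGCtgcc
ATP5MJ promoter: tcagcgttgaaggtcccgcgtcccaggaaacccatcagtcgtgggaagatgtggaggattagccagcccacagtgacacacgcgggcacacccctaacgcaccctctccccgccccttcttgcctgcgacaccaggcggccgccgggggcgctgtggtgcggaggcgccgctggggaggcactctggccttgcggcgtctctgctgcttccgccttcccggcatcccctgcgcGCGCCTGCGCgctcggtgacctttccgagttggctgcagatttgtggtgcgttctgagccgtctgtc
NDUFA1 promoter: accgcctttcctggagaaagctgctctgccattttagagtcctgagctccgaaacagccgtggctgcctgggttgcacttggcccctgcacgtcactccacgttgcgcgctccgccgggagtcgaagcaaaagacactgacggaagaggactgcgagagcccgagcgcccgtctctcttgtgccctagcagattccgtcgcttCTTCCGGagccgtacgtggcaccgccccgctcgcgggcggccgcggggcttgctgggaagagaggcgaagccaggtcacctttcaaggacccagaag
COX7B2 promoter: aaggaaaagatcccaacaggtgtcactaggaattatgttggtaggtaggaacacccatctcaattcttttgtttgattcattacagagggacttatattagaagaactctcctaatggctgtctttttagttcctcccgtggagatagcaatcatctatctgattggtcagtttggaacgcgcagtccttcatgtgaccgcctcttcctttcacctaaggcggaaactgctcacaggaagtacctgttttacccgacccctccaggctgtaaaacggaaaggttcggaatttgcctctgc
The motifs were the core NRF1 motif, CCGGAAG for the ETS family to which GABPA belongs, and AAGATGGC for YY1. ATP5PO held an NRF1 and a YY1 match, ATP5MJ an NRF1 match, NDUFA1 an ETS match and COX7B2 none, and no match overlapped another. Promoter windows were found for 67 of the 79 subunit genes. The NRF1 motif was in 16 of them (23.9%, against 10.1% of 14239 tested genes with a window), the ETS motif in 20 (29.9%, against 16.8%) and the YY1 motif in 11 (16.4%, against 4.86%). Among the 22 subunit genes with a window that were higher in shHMGA2 arrays, 7 held the NRF1, 5 the ETS and 5 the YY1 motif, and among the other 45 the counts were 9, 15 and 6. A match is a string of letters and not a measured site.

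The 15 complex I probe sets that rose covered 14 genes and each part of the enzyme. In the NADH-oxidising tip, the accessory subunits NDUFA2 (10.74, 10.81 and 10.86 against 11.12, 11.19 and 11.35; log2 difference 0.42, SE 0.07, adjusted p = 0.00088), NDUFV3 (0.40) and NDUFA7 (0.26) were higher. Among the core subunits, NDUFS7, which holds the last iron-sulfur cluster before ubiquinone, rose by 0.25 (adjusted p = 0.017) and NDUFS3 by 0.20 (adjusted p = 0.033). The core subunits NDUFS1, NDUFS8 and NDUFV1 did not pass the test at differences of -0.06, 0.02 and 0.12. The core iron-sulfur subunit NDUFV2 went the other way. Its probe set 8020058 read 10.40, 10.48 and 10.54 in control and 10.31, 10.26 and 10.26 in shHMGA2 arrays (log2 difference -0.20, SE 0.06, adjusted p = 0.02), and its other probe set differed by -0.16 (adjusted p = 0.069). All shHMGA2 values of both NDUFV2 probe sets were below all control values, but the call was lost without any 1 of control replicates 2 and 3 and shHMGA2 replicates 2 and 3, at adjusted p = 0.054 to 0.076. Of the other called members, NDUFA10, NDUFA8 and NDUFB11 rose by 0.34, 0.30 and 0.27, and NDUFC1, NDUFA9, NDUFAB1 (the acyl carrier protein) and NDUFB4 by 0.15 to 0.23. The remaining 21 complex I probe sets did not pass the test, with differences from -0.17 (NDUFS4, probe set 8105311, adjusted p = 0.097) to 0.23 (NDUFB10, adjusted p = 0.058).

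In complex II, both probe sets of SDHC, a membrane anchor that binds ubiquinone, were higher. Probe set 8011212 read 11.75, 11.66 and 11.68 in control and 11.98, 11.97 and 12.12 in shHMGA2 arrays (log2 difference 0.33, SE 0.06, adjusted p = 0.0019), and 7906746 rose by 0.27 (adjusted p = 0.013, or 0.051 without control replicate 2). The flavoprotein SDHA and the second anchor SDHD differed by -0.04 and by -0.01 and -0.10, none past the test. In complex III, UQCR10, a small membrane subunit, read 10.24, 10.25 and 10.29 against 10.58, 10.58 and 10.64, without overlap (log2 difference 0.34, SE 0.05, adjusted p = 0.00051). UQCRQ, another small subunit, rose by 0.16 (adjusted p = 0.043), a call lost without any single control or shHMGA2 array and without either array labelled Tet1 (adjusted p = 0.06 to 0.13). The core proteins UQCRC1 and UQCRC2 differed by 0.03 and 0.14 (adjusted p = 0.77 and 0.12), and the hinge protein UQCRH by 0.32 (95% confidence interval 0.08 to 0.56, adjusted p = 0.051).

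Complex IV had the fewest calls for its size, a difference between complexes that was not tested. COX7C, a small subunit present in all tissues, was the only one of 18 probe sets to rise, from 9.44, 9.49 and 9.48 to 9.86, 9.88 and 9.99 (log2 difference 0.44, SE 0.06, adjusted p = 0.00034). COX7B2, a copy of COX7B best known from testis, was the only one to fall. It read 9.16, 9.06 and 9.26 in control and 8.60, 8.39 and 7.94 in shHMGA2 arrays, lowest in replicate 3, which is a fall by 0.85 (SE 0.14, 95% confidence interval -1.15 to -0.55, 1.80-fold, adjusted p = 0.00081). Its paralogue COX7B varied too widely to be read, with control values of 7.19, 6.60 and 7.74 and an interval of -0.40 to 0.56. For the other pairs of alternative subunits, COX4I1 and COX4I2 differed by 0.01 and -0.01, both COX6A1 probe sets and COX6A2 by 0.12 and -0.10, COX6B1 and COX6B2 by -0.02 and -0.06, COX7A2 and COX7A1 by 0.27 and -0.11, and COX8A and COX8C by 0.05 and 0.03. None of these passed the test (adjusted p = 0.059 to 0.95), and COX6B2, COX4I2, COX7A1 and COX8C lay below the 30th percentile in both groups.

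In ATP synthase the rises lay in the stalk, the ring, the membrane part and the inhibitor, and no subunit of the catalytic head passed the test. Besides ATP5PO, the stalk subunit ATP5PF (coupling factor 6) read 9.06, 9.16 and 9.03 against 9.36, 9.26 and 9.37 (log2 difference 0.25, SE 0.06, adjusted p = 0.0089), while the stalk subunits ATP5PB and ATP5PD differed by less than 0.005 in size and by 0.12, neither past the test. Of 3 genes for the proton-carrying c ring, ATP5MC2 rose by 0.22 (adjusted p = 0.026), and ATP5MC1 and ATP5MC3 stood 0.09 higher without passing. ATP5ME, subunit e, rose by 0.23 (adjusted p = 0.02). The inhibitor ATP5IF1, which stops the enzyme from running backwards, read 8.63, 8.56 and 8.56 in control and 8.86, 8.74 and 8.85 in shHMGA2 arrays (log2 difference 0.23, SE 0.06, adjusted p = 0.011). The head subunits ATP5F1A, ATP5F1B, ATP5F1C and ATP5F1D differed by 0.04, 0.08, 0.10 and 0.14, with adjusted p = 0.24 to 0.70.

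**Figure D2:**
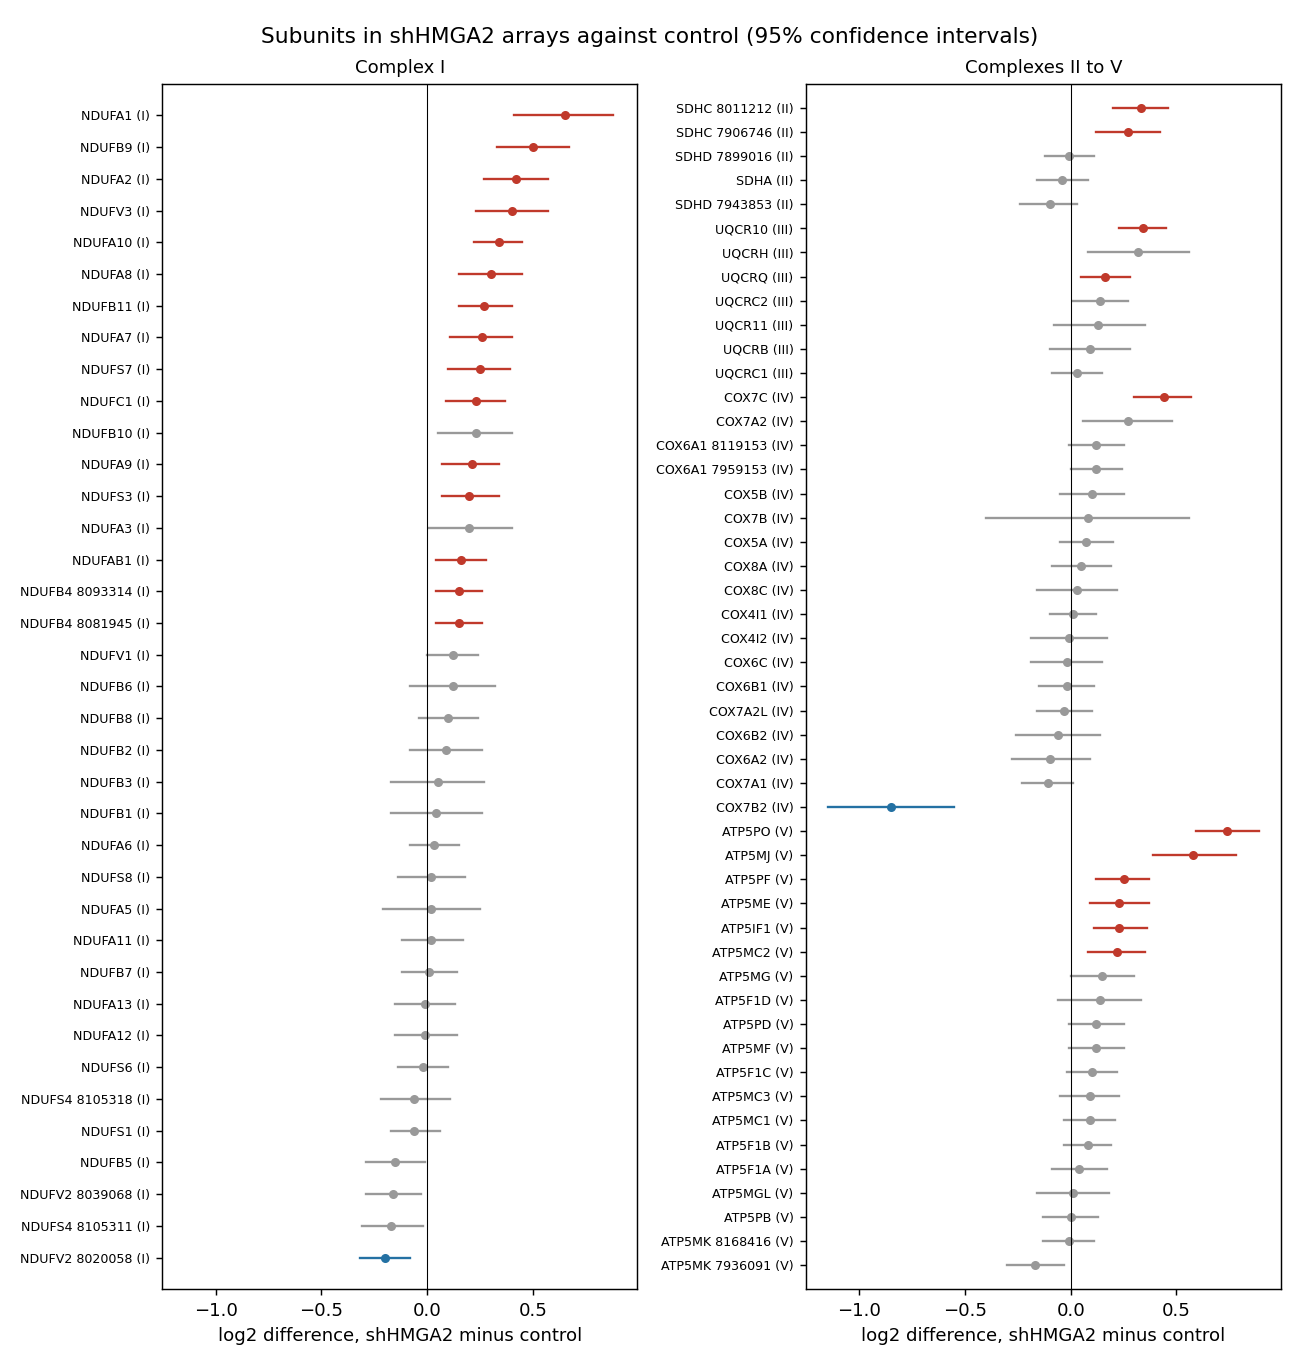
Log2 difference of each of the 86 subunit probe sets, shHMGA2 minus control (points, with 95% confidence intervals from limma; 3 arrays a group; probe set numbers where a gene has 2). Red marks the 26 higher and blue the 2 lower at adjusted p under 0.05; complex I is on the left, and in complex IV only COX7C and COX7B2 are coloured.

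Other features moved in the same shHMGA2 arrays. Of 9 genes known as traits of embryonic kidney cell lines, 5 were higher, and the log2 of their summed level was 9.96 to 10.08 in control and 11.36 to 11.74 in shHMGA2 arrays. HOXD10 had means of 5.95 in control and 10.42 with the shRNA, whereas PAX2, LHX1, CDH6 and TFAP2B did not rise. CDKN2A and MTAP, which lie in the 9p21 region that MDA-MB-231 is known to lack, had means of 7.40 and 6.28 in control and 9.88 and 8.0 in shHMGA2 arrays, and were highest in replicate 3. Most subunit probe sets called higher were also highest in replicate 3, among them ATP5PO, NDUFA1, ATP5MJ, NDUFB9, COX7C, NDUFA2 and UQCR10. NDUFV3, ATP5IF1 and SDHC (7906746) were highest in replicate 1, ATP5IF1 only by 8.86 against 8.85 in replicate 3. The rest were highest in replicate 2 or tied. Among 8 fibroblast, 7 leukocyte and 6 endothelial probe sets, none was higher and 1, 2 and 1 were lower, and 4 of 6 genes known to be high in MDA-MB-231 were lower. The part of these features in the subunit differences was not tested. In bulk RNA, fewer cells of a type and less RNA per cell cannot be told apart.

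**Figure D3:**
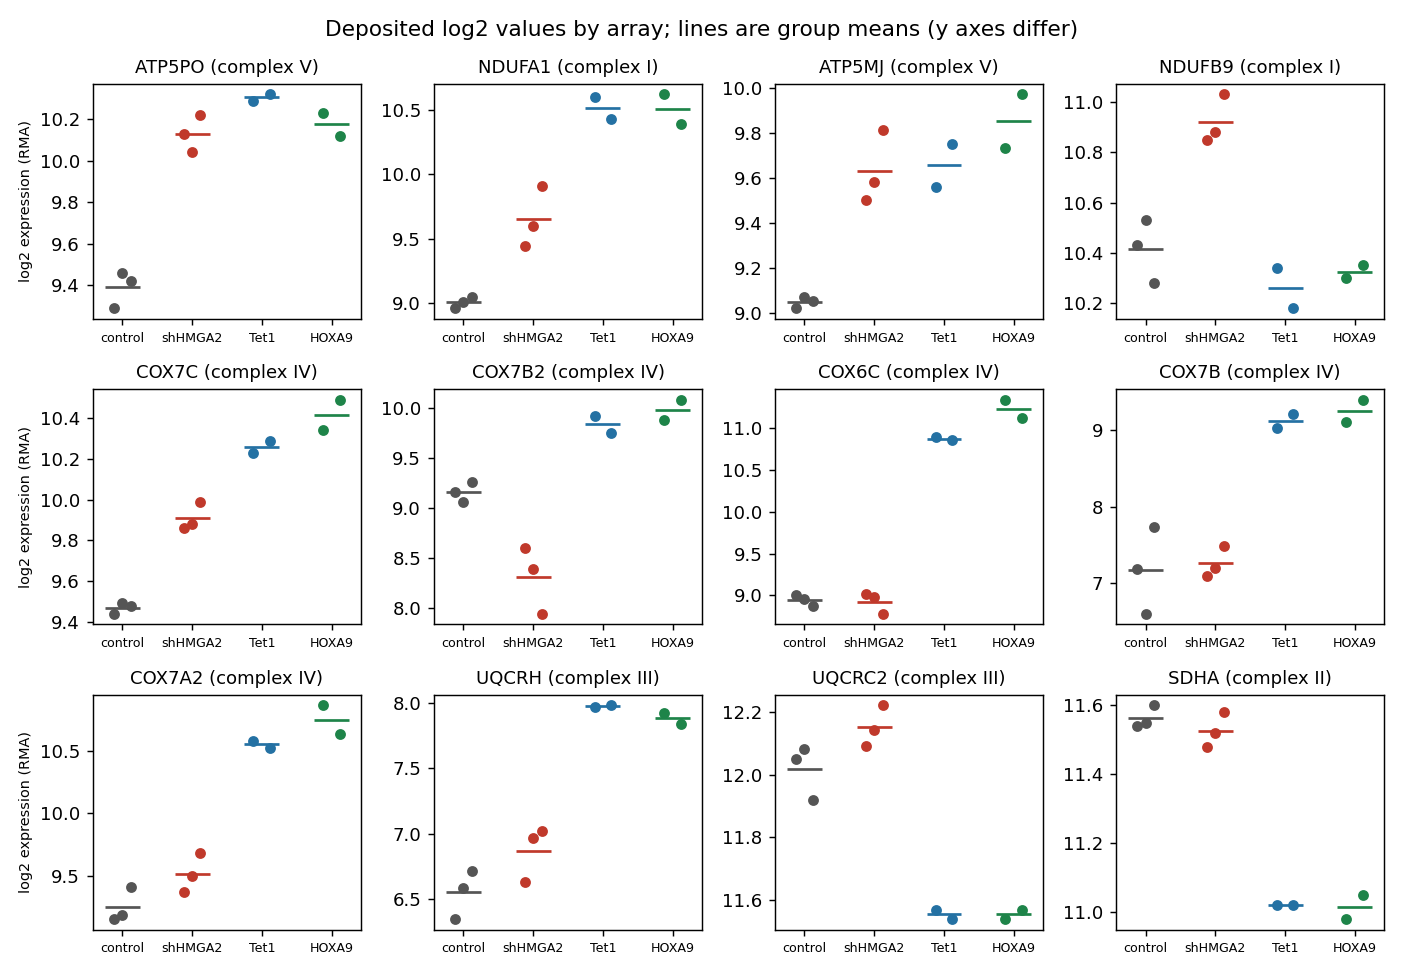
Deposited log2 values of 12 subunits in each of the 10 arrays (points) with group means (lines); y axes differ between panels. ATP5PO, NDUFA1, ATP5MJ, NDUFB9 and COX7C are higher in all shHMGA2 arrays than in all control arrays and COX7B2 is lower; COX6C, COX7B, COX7A2 and UQCRH are higher, and UQCRC2 and SDHA lower, in the arrays labelled Tet1 and HOXA9.

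The arrays labelled Tet1 and HOXA9 came from 1 set and differed little in these genes. None of the 86 probe sets was called (limma, adjusted p under 0.05), against 0.113% of all probe sets higher and 0.293% lower in Tet1, while 6 had an unadjusted p under 0.05 and eBayes with trend and robust settings also called none. The 95% confidence interval of the difference lay within 1.5-fold either way for 83 of 86 probe sets. The exceptions were NDUFV3 (0.18 to 0.60), UQCRB (-0.60 to -0.15) and COX7B (-0.71 to 0.46). NDUFV3 read 9.72 and 9.82 in the arrays labelled Tet1 and 9.31 and 9.46 in those labelled HOXA9 (log2 difference 0.39, SE 0.10, adjusted p = 0.16, or 0.46 with adjusted p = 0.045 after quantile normalization, which called 0.277% of all probe sets higher and 0.468% lower). UQCRB, a subunit of complex III that helps bind ubiquinone, read 7.98 and 8.03 against 8.27 and 8.49 (log2 difference -0.37, adjusted p = 0.22). COX6C, a small subunit of complex IV, read 10.89 and 10.86 against 11.34 and 11.12 (-0.36, adjusted p = 0.20). None of these 3 genes passed the test on the deposited values. Of 8 fibroblast probe sets, 2 were higher in the arrays labelled Tet1.

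Set against the same 3 control arrays, both inducible groups had high complex IV subunits and lower members in every complex. On the deposited values 53 subunits were higher and 17 lower in the arrays labelled Tet1 (61.6% and 19.8%, against 53.9% and 22.9% of all probe sets), and 51 were higher and 16 lower in those labelled HOXA9 (59.3% and 18.6%, against 54.0% and 21.4%). These shares lie near the background and move with the scaling. With equal array medians 23 were higher and 44 lower for Tet1 and 26 and 44 for HOXA9, against 22.1% and 51.2%, and 20.5% and 50.8%, of all probe sets. After quantile normalization the counts were 51 and 19, and 50 and 17, against 32.8% and 33.2%, and 29.9% and 33.9%, of all probe sets. Directions below are therefore given for members called the same way under all 3 scalings, which were 23 higher and 15 lower for Tet1 (26.7% and 17.4%, against 20.3% and 21.2% of all probe sets) and 26 higher and 15 lower for HOXA9 (30.2% and 17.4%, against 18.3% and 20.3%). By complex these were 5 higher and 7 lower in complex I, 1 and 2 in complex II, 1 and 2 in complex III, 9 and 1 in complex IV and 7 and 3 in complex V for Tet1. The corresponding counts for HOXA9 were 7 and 7, 0 and 2, 1 and 2, 9 and 1, and 9 and 3. Because the comparisons share their control arrays, members called in both are not counted as agreement.

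**Figure D4:**
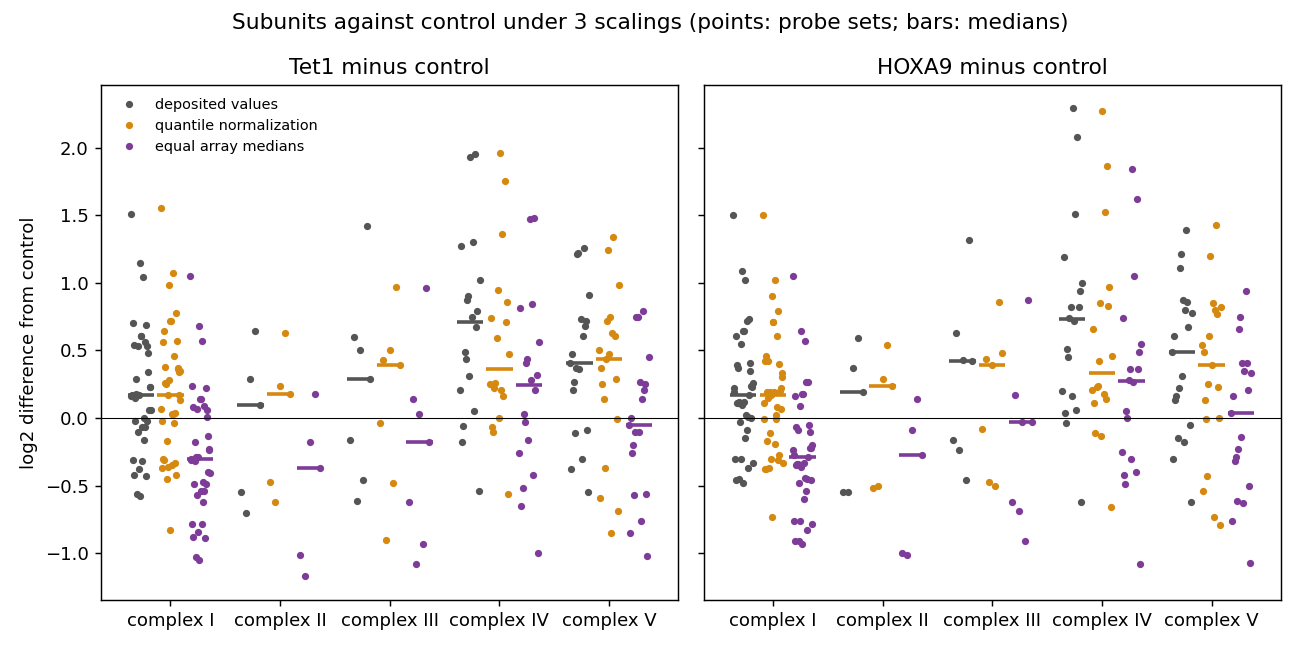
Log2 difference of each subunit probe set (points) from control by complex, for the arrays labelled Tet1 (left) and HOXA9 (right), on the deposited values, after quantile normalization and with equal array medians; bars are medians. The complex I median falls from 0.17 on the deposited values to -0.30 (Tet1) and -0.29 (HOXA9) with equal array medians, while the complex IV median stays above 0 under each scaling.

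Complex IV held the largest differences. COX6C read 9.0, 8.96 and 8.87 in control, 10.89 and 10.86 in the arrays labelled Tet1 and 11.34 and 11.12 in those labelled HOXA9. Every array of both groups was above control, by 1.93 (SE 0.09, adjusted p = 1.1e-08) and 2.29 (SE 0.09, adjusted p = 3.7e-09) on the log2 scale, and still by 1.47 and 1.84 with equal array medians. COX7B, a small subunit near the dimer interface, read 9.03 and 9.22, and 9.11 and 9.40, against the widely spread 7.19, 6.60 and 7.74 of control (1.95 and 2.08, SE 0.24 for both). COX7A2, the form of subunit VIIa found in most tissues, stood at 9.15, 9.18 and 9.41 in control against 10.58 and 10.53, and 10.87 and 10.64, that is 1.3 and 1.51 higher (SE 0.11). COX6B1, the form of subunit VIb outside testis, was 0.90 and 0.82 higher and COX7C 0.79 and 0.94 higher. COX6A2, the heart and skeletal muscle form of subunit VIa, was 0.87 and 0.74 higher. COX4I2 (best known from lung), COX7A1 (muscle) and COX8C (testis) were called higher under all scalings but lay below the 30th percentile in control. Only a lower bound against that limit, which holds on the deposited scale alone, can be given. On the deposited scale COX4I2 was at least 2.34-fold and 2.22-fold higher, COX7A1 1.32-fold and 1.3-fold, and COX8C 1.53-fold and 1.5-fold. The other scalings gave smaller log2 differences. With equal array medians these were 0.81 and 0.74 for COX4I2, 0.28 and 0.27 for COX7A1, and 0.56 and 0.55 for COX8C. After quantile normalization they were 0.74 and 0.66, 0.21 and 0.18, and 0.47 and 0.46. Without these 3 dim genes, complex IV had 6 members higher under all scalings in each group. COX8A, the common form of subunit VIII, was the exception, at 12.12, 12.04 and 12.18 in control against 11.61 and 11.55, and 11.41 and 11.57 (-0.54 and -0.62, SE 0.07, adjusted p = 2.8e-05 and 9.4e-06). COX4I1, the common form of subunit IV, was 0.21 and 0.20 higher on the deposited values and -0.26 and -0.25 with equal array medians, so its direction flips with the scaling, and so does that of COX6B2 (0.31 and 0.16 against -0.16 and -0.30), which lay below the 30th percentile in all 4 groups. The COX6A1 probe sets were 0.44 to 0.51 higher on the deposited values and -0.03 to 0.05 with equal array medians. COX7B2 was 0.67 and 0.82 higher and 0.21 and 0.36 with equal array medians, where it was not called.

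In complex II the catalytic flavoprotein SDHA was lower. It read 11.54, 11.55 and 11.60 in control, 11.02 in both arrays labelled Tet1 and 10.98 and 11.05 in those labelled HOXA9 (-0.55 in each, SE 0.06, adjusted p = 5.8e-06 and 6.3e-06). SDHC gave opposite answers on its 2 probe sets. Probe set 7906746 was lower, from 10.38, 10.17 and 10.20 to 9.54 and 9.57 (-0.70), and 9.68 and 9.71 (-0.55), whereas 8011212 was 0.29 and 0.37 higher on the deposited values and -0.18 and -0.09 with equal array medians. No direction is given for SDHC. SDHD was 0.64 and 0.59 higher on probe set 7899016, called under all 3 scalings for Tet1 only, with differences of 0.18 and 0.14 at equal array medians. Its other probe set, 7943853, differed by 0.10 and 0.19 on the deposited values. With equal array medians it was called lower, at -0.37 and -0.27, so no direction is given for SDHD either. In complex III, the core protein UQCRC2 was lower, at 12.05, 12.08 and 11.92 in control against 11.57 and 11.54, and 11.54 and 11.57 (-0.46 in each, SE 0.07), and so was UQCRB (-0.61 and -0.24, the latter lost without HOXA9 replicate 1, either array labelled Tet1 or control replicate 3, at adjusted p = 0.053 to 0.34). UQCRH was higher, from 6.35, 6.59 and 6.72 to 7.97 and 7.98 (1.42, SE 0.12), and to 7.92 and 7.84 (1.32). Its control mean of 6.56 lay little above the 30th percentile. A probe set that UQCRH shares with UQCRHL and GNA13 (7912670) had a control mean of 9.81. That probe set was 0.39 and 0.42 higher on the deposited values, and the other scalings were not applied to it. The size of the UQCRH rise therefore rests on its own dim probe set. The other core protein, UQCRC1, was 0.50 and 0.43 higher on the deposited values and 0.03 and -0.03 at equal array medians.

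Complex I was split. NDUFA1 read 8.96, 9.01 and 9.05 in control, 10.60 and 10.43 in the arrays labelled Tet1 and 10.62 and 10.39 in those labelled HOXA9, the largest difference of the complex (1.51 and 1.5, SE 0.12). NDUFB2 (1.15 and 1.09) and NDUFB7 (1.04 and 1.02), both membrane-arm accessory subunits, and NDUFS4 (0.69 and 0.73, probe set 8105311), an accessory subunit near the NADH-oxidising tip, were also higher under all scalings. Lower under all scalings in both groups were NDUFA9 (-0.56 and -0.45), the core subunit NDUFS3 (-0.43 and -0.37), NDUFA2 (-0.42 and -0.46), NDUFB3 (-0.58 and -0.48), NDUFB10 (-0.38 and -0.30) and NDUFA12 (-0.31 and -0.30). Called under all scalings in 1 group only were NDUFA13 (0.70) and NDUFB6 (-0.32) for Tet1, and NDUFC1 (0.72), NDUFB4 (0.64) and NDUFV3 (-0.33) for HOXA9, and in complex V ATP5MGL (-0.30) for Tet1 and ATP5MJ (0.80), ATP5F1C (0.61) and ATP5MC1 (-0.15) for HOXA9. ATP5MC1 lost its call at adjusted p = 0.054 to 0.29 without 1 of 7 arrays, and ATP5MGL at 0.14 without Tet1 replicate 1. NDUFA9, NDUFS3 and NDUFA2 were higher in shHMGA2 arrays against the same controls. NDUFA9, for example, read 10.79, 10.88 and 10.89 in control, 11.01, 11.01 and 11.16 with the shRNA, 10.31 and 10.27 in the arrays labelled Tet1 and 10.39 and 10.41 in those labelled HOXA9. NDUFB9, which was higher in shHMGA2 arrays, differed from control by -0.16 and -0.09 here and passed no test (adjusted p = 0.12 and 0.37).

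In ATP synthase, members of the membrane part and of the stalk were among the high ones, and only 1 of 3 ring genes. ATP5MK, also known as DAPIT and needed for ATP synthase dimers, read 10.14, 10.07 and 10.15 in control against 11.38 and 11.38, and 11.58 and 11.45, on probe set 7936091 (1.26 and 1.39, SE 0.07), and its other probe set was 0.68 and 0.86 higher. ATP5ME stood at 8.81, 8.92 and 8.83 against 10.13 and 10.01, and 10.00 and 10.12 (1.22 and 1.21, SE 0.07). ATP5MC3 was 1.21 and 1.11 higher, while the ring gene ATP5MC2 stood at 0.37 and 0.22 on the deposited values and at -0.10 and -0.23 with equal array medians. The stalk subunits ATP5PO and ATP5PB and subunit g (ATP5MG) were higher under all scalings, with deposited differences of 0.91 and 0.78, 0.72 and 0.67, and 0.73 and 0.87. The catalytic subunit ATP5F1B was lower, at 13.06, 13.05 and 13.0 in control against 12.62 and 12.69, and 12.73 in both (-0.38 and -0.30, SE 0.06), as was the stalk subunit ATP5PF, at 9.06, 9.16 and 9.03 against 8.54 and 8.53, and 8.43 and 8.51 (-0.55 and -0.62). ATP5PO and ATP5PF, subunits of 1 stalk that were both higher in shHMGA2 arrays, thus lay on opposite sides of control here. The inhibitor ATP5IF1 was 0.27 and 0.16 higher on the deposited values but -0.20 and -0.29 with equal array medians, and its call for HOXA9 was lost without 1 of 5 arrays (adjusted p = 0.055 to 0.25). In the same arrays, 5 of 8 fibroblast, 3 of 6 endothelial and 1 of 7 leukocyte probe sets were higher under all scalings in each group. Of the endothelial ones 1 was lower under all scalings in each group. Over all probe sets 20.3% were higher and 21.2% lower for Tet1, and 18.3% and 20.3% for HOXA9. The log2 of the summed fibroblast level was 9.72 to 9.81 in control, 10.94 in both arrays labelled Tet1 and 10.53 to 10.60 in those labelled HOXA9, with LUM and DCN below the 30th percentile in all groups. The part of these markers in the subunit differences was not tested.

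Genes that build or feed the complexes were read beside the subunits. In shHMGA2 arrays 3 of 15 probe sets for complex I assembly factors rose and 1 fell, 1 of 6 for complex III, 5 of 18 for complex IV and 2 of 5 (with 1 fall) for complex V rose, and none of 3 for complex II and none of 5 for electron carriers and CYC1 were called. Over all probe sets 13.4% rose and 12.4% fell, and several of these short lists lie near that. COA6, a copper-handling factor of complex IV, rose by 0.69 (SE 0.10, adjusted p = 0.00053) and COX15, which makes its heme A, by 0.33. TIMMDC1, which helps join complex I, rose by 0.32, BCS1L, which inserts the Rieske protein of complex III, by 0.31, and ATPAF2, a chaperone of the ATP synthase head, by 0.33. Of 78 mitochondrial ribosome probe sets 16 rose, led by MRPS21 (0.59) and MRPS14 (0.57), and 4 fell, or 12 and 3 under all 3 scalings. Of 16 probe sets for regulators of mitochondrial genes, TFB1M, which methylates mitochondrial ribosomal RNA, rose by 0.56, both probe sets of the ETS factor GABPA rose by 0.45 and 0.19 (the latter not under all scalings), and the coactivator PPARGC1A fell by 0.38. In the citric acid cycle 3 of 12 rose, with IDH2 at 0.57, and 2 fell (OGDH by 0.39 and SUCLG2 by 0.34), or 1 and 2 under all 3 scalings.

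Against the same controls, assembly factors of complexes I, III and IV, the mitochondrial ribosome and the citric acid cycle had more lower than higher members in the arrays labelled Tet1 and HOXA9 when all 3 scalings are required. Complex I assembly factors were 0 higher and 8 lower of 15 for Tet1 and 0 and 5 for HOXA9, complex IV assembly factors 1 and 7 of 18, and 0 and 4, the mitochondrial ribosome 3 and 24 of 78, and 3 and 22, and the citric acid cycle 1 and 4 of 12, and 1 and 5, where 20.3% of all probe sets were higher and 21.2% lower for Tet1 and 18.3% and 20.3% for HOXA9. On the deposited values the balance differed, with 25 higher and 29 lower, and 26 and 26, for the ribosome, 6 and 7, and 7 and 5, for complex IV assembly and 3 and 4, and 6 and 5, for the citric acid cycle. ACAD9, which assembles complex I, was lower by 0.76 and 0.69 on the log2 scale, COA7, a complex IV assembly factor, by 1.37 and 1.45, LYRM7, a complex III assembly factor, by 1.07 and 0.98, and citrate synthase (CS) by 0.99 and 1.00. SDHAF4, an assembly factor of complex II, had a control mean of 5.61, below the 30th percentile. It was at least 1.75-fold and 1.86-fold higher against that limit, a bound that holds on the deposited scale alone. Cytochrome c (CYCS) was 0.99 and 1.08 higher. The difference in direction between these lists and the complex IV subunits was not tested.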

How the data were processed

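Gene expression was measured in 4 groups of MDA-MB-231 1833 cells on Affymetrix arrays. Per the submitters' processing notes, the authors made the deposited log2 values with RMA under R 2.11, a method that corrects for background, quantile-normalizes the arrays and combines the probes of a set. It is not stated whether 1 normalization covered all arrays. The 12 columns held 10 independent arrays. Gene symbols came from the platform annotation: 19460 probe sets have 1 symbol, 1754 several, and 12083 are not listed.

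All 19460 probe sets, dim ones included, entered 1 limma fit (version 3.58.1, R 4.3.3) with a mean for each of 4 groups, 6 residual degrees of freedom and 5.551 prior ones from eBayes. Tests were two-sided, with Benjamini-Hochberg adjustment over all probe sets tested in each of 4 comparisons and calls at adjusted p under 0.05. Genes with several symbols and the targeted genes were read from a fit to all 33297 probe sets. The labels give no pairing beyond the replicate number, so no block was used. Deviations from group means correlated at 0.17, 0.136 and 0.003 for same-numbered control and shHMGA2 arrays, against -0.164 to 0.036 for other numbers. For Tet1 and HOXA9 arrays the values were 0.179 for same numbers and -0.179 for others. Same-numbered arrays of control and of Tet1 or HOXA9 gave -0.19 to 0.092. Whether the arrays were paired is therefore not settled.

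Named subunits were, per comparison and complex, up to 3 called members with the largest rise and 3 with the largest fall without overlap, every called member that differed by at least 1.5-fold, and the alternative isoform pairs and ATP5IF1. Of the other lists up to 2 called genes in each direction were taken. Members described beyond this rule were chosen for their place in the complex after their values were seen. The members and lists were chosen with earlier results of these data known. The number of arrays limits the precision. Levels of different probe sets were not compared with each other. The fit was tested on simulated data. Promoter sequences are those of RefSeq. Alternatives were other scalings, all 12 columns, each array left out, a replicate block, 1 probe set per gene, all probe sets tested, dim probe sets left out, other variance settings, and only the 2 groups compared.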

Additional observations from a re-analysis of the deposited data

How the results depend on the processing

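The 26 higher and 2 lower subunits in shHMGA2 arrays became 24 and 2 after quantile normalization, 20 and 4 with equal array medians (median 0.06), 6 lower with all 12 columns and 1 lower with 1 probe set per gene. Leaving out 1 array gave 16 to 27 higher, 1 to 3 lower and medians of 0.07 to 0.12, where 10.6% to 13.7% of all probe sets were higher and 8.65% to 12.4% lower. Of the 28 calls, 17 to 28 were made again when 1 array was left out, 23 when all probe sets were tested and 22 when only the 2 groups were fitted, with 0 opposite calls. Tet1 against HOXA9 gave 1 higher and 5 lower with all 12 columns, 1 higher and a median of 0.01 after quantile normalization, and 0 and 0 with medians of -0.03 to 0.00 when 1 array was left out. In those last fits 0.0206% to 0.195% of all probe sets were higher and 0.036% to 0.375% lower. Tet1 and HOXA9 against control depended on the scaling: equal array medians gave 23 higher and 44 lower (median -0.18), and 26 and 44 (median -0.21), and quantile normalization gave medians of 0.26 and 0.22. Of 70 calls for Tet1 and 67 for HOXA9, equal array medians kept 40 and 42 and gave the opposite call for 11 and 9. Among the named subunits, equal array medians turned the direction for Tet1 and HOXA9 of ATP5IF1 (-0.20 and -0.29), COX4I1 (-0.26 and -0.25), COX6A1 on probe set 8119153 (-0.03 and -0.00), COX6B2 (-0.16 and -0.30) and SDHC on 8011212 (-0.18 and -0.09). For HOXA9 they also turned SDHD on 7943853 (-0.27) and UQCRC1 (-0.03), and quantile normalization turned ATP5IF1 (-0.01). Leaving out 1 array gave 49 to 54 higher, 13 to 17 lower and medians of 0.28 to 0.30 for Tet1, and 48 to 51, 11 to 16 and 0.25 to 0.29 for HOXA9. Of all probe sets, 49.2% to 54.4% were higher and 19.2% to 23.4% lower for Tet1 in these fits. The shares for HOXA9 were 49.5% to 54.5% and 17.6% to 21.9%. With the replicate number as a replicate block the counts were 25 and 2 for shHMGA2, 0 and 0 for Tet1 against HOXA9, 52 and 16 for Tet1, and 52 and 13 for HOXA9 (median 0.26); the pairing has no basis in the labels beyond the number. Shares over all probe sets are not given for the fits with all 12 columns, 1 probe set per gene or the replicate block. The cause of the other changes was not tested.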

Other observations

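Probe sets that the subunits share with other genes were read apart, in 9 probe sets. The probe set of ATP5F1E and SLMO2-ATP5E, where ATP5F1E is the epsilon subunit of ATP synthase, had means of 9.23 in control, 9.09 in shHMGA2, 10.23 in Tet1 and 10.30 in HOXA9 arrays. Its log2 differences from control were -0.13, 1.00 and 1.07 (adjusted p = 0.23, 2.3e-06 and 1.9e-06 over all probe sets). The probe set of NDUFC2 and NDUFC2-KCTD14 had means of 11.94, 12.09, 11.51 and 11.50 in the same order, and that of NDUFS5 with 3 other symbols 12.64, 12.51, 12.75 and 12.71. A probe set of SDHA and its pseudogenes SDHAP1 to SDHAP3 (8084912) was lower by 0.73 on the log2 scale in each inducible group, and a second one (8093039) by 0.13. The pseudogene ATP5F1EP2 differed from control by 0.44 and 0.57 and UQCRBP1 by 0.78 and 0.99 in Tet1 and HOXA9, whereas UQCRB itself was lower in both. No scaling other than the deposited one was applied to these probe sets.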
